A study of Mus musculus with 8 samples.

Results

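The Schlafen family genes on these arrays are Slfn1, Slfn2, Slfn3, Slfn4, Slfn5, Slfn8 and Slfn9. They were chosen by name, as every row of the non-normalized table whose gene name is one of these 7, which gave 8 probes, with 2 for Slfn9 and 1 for each other member. The whole table holds 25697 probes for 17870 current gene symbols. Total RNA of mouse embryonic fibroblasts (MEFs), cultured connective tissue cells of the embryo, was measured on Illumina bead arrays of 1 colour, on which a probe's signal is the brightness of its beads. The 8 arrays form 4 groups of 2. Wild-type MEFs and TICAM knockout MEFs, named for the gene Ticam1 in the series' design, were each given c-di-GMP or DMSO. Ticam1 encodes TRIF, an adaptor protein of Toll-like receptors. Bacteria use c-di-GMP as a signalling molecule, and in mammalian cells it binds STING. Per the labels' protocols, all cells grew in medium with 10% serum, c-di-GMP was transfected at 8 µg/ml with Lipofectamine for 30 min, the controls had an equal amount of DMSO, and RNA was taken 4 h after transfection. The labels do not say whether replicates were separate cultures or animals, how the knockout was made, or whether each genotype is 1 line, so each p-value weighs a difference only against the spread among these arrays, and that spread may be technical.

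Schlafen genes encode proteins that regulate growth and differentiation of immune cells and, in several members, act on transfer RNA and translation. The mouse family falls into short proteins (Slfn1 and Slfn2), intermediate ones (Slfn3 and Slfn4) and long ones with a helicase-like domain (Slfn5, Slfn8 and Slfn9). Many members are induced by type I interferon, the cytokine that cells release when STING or the Toll-like receptors are engaged, and they are best known from T cells and macrophages. The series asks which transcripts c-di-GMP changes, in wild-type and in knockout cells.

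Of the 7 members, 1 was measured above background in these fibroblasts. Slfn2, which keeps T cells quiescent, was detected on all 4 wild-type arrays and on none of the 4 knockout arrays, 1 of which had weak signal. Its level was 2.79-fold higher with c-di-GMP than with DMSO in wild-type cells, a difference that did not pass the test over all genes on the 8 arrays (adjusted p = 0.272, limma). It was lower in knockout than in wild-type cells under both treatments, and both of these differences passed the test. On the normalized scale used here it was at least 8.65-fold lower under c-di-GMP and at least 1.50-fold lower under DMSO. The fitted log2 difference under c-di-GMP was -3.61 on this scale and -1.93 with the authors' normalized table. The size of the difference thus depends on the processing. The other 6 members were at background on nearly every array, so for them the data give no level.

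The members lie side by side on chromosome 11, in the order Slfn5, Slfn9, Slfn8, Slfn2, Slfn1, Slfn4 and Slfn3, with the pseudogene Slfn10-ps between Slfn8 and Slfn2 (RefSeq, GRCm38.p6). The promoter window of Slfn2 is printed because it is the member that was measured. It runs from 250 bases before to 50 after the gene's start and is taken from RefSeq on GRCm38.p6. Capitals mark a run of 9 bases that the Slfn1, Slfn2, Slfn3 and Slfn4 windows all hold.

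Slfn2 promoter, chr11:83064862-83065161, plus strand: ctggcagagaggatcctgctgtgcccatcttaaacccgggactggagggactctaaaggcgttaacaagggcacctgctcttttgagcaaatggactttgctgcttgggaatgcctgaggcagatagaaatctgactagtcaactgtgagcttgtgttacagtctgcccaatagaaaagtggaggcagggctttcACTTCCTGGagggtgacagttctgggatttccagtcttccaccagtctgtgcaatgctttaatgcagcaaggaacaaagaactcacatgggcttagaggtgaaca

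All 7 members had a window in the RefSeq promoter table, 2 of them for Slfn8. The windows were searched on both strands for GAAANNGAAA, the core of the interferon-stimulated response element (ISRE), and for TTCNNNGAA, the pattern of the gamma-activated site. The ISRE core stood in the windows of Slfn5, Slfn8 and Slfn9 and in none of those of Slfn1, Slfn2, Slfn3 and Slfn4. Of 32851 windows in the table, 3.44% hold it. The gamma-activated pattern stood in none of the members' windows and in 8.30% of all windows. The 9-base run was looked for after the sequences had been seen, and 0.843% of all windows hold it. A match is a description of letters, not a site of binding. The stretches around the matches are printed to set the groups of members beside each other, with the 9-base run in capitals for the first 4 and the ISRE core, on either strand, for the last 3.
Slfn1, chr11:83116734-83116766, plus strand: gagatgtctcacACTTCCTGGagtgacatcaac
Slfn2, chr11:83065045-83065077, plus strand: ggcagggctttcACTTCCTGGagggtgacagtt
Slfn3, chr11:83191276-83191308, plus strand: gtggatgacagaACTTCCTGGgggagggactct
Slfn4, chr11:83175101-83175133, plus strand: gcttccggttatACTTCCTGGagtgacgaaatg
Slfn5, chr11:82951935-82951968, plus strand: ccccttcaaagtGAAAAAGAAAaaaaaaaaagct
Slfn8, chr11:83020837-83020870, minus strand: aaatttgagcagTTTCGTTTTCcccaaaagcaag
Slfn9, chr11:82991854-82991887, minus strand: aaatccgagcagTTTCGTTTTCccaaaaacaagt

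Counted from the gene's start, with negative positions before it, the run began at -74, -55, -42 and -73 in Slfn1, Slfn2, Slfn3 and Slfn4. The ISRE core began at -155 in Slfn5, -48 in the first Slfn8 window and -45 in Slfn9. The Slfn8 and Slfn9 windows were 80.7% identical over 305 aligned positions, against 42.3% to 50.3% for every other pair of members. The member with a measured level, Slfn2, is thus not among those whose window holds the ISRE core. The probe sequences were not used here, so it was not checked whether a probe could also bind the transcript of a similar family member.

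A probe counts as detected on an array when its deposited detection p-value is under 0.05. The second knockout DMSO array stood apart from the others. Its mean signal was 225.9 against 252.6 to 648.9, it detected 6468 probes against 11254 to 11657, and its lowest detected normalized log2 intensity was 7.53 against 5.36 to 5.45. It correlated with the first knockout DMSO array at r = 0.833 across probes, where the other groups' arrays reached 0.984 to 0.993. Slfn2 results and the list counts that rest on it are therefore given with all 8 arrays and with the 7 others, where 1 array stands for knockout DMSO and the other groups set its spread. The targeted gene does not check the labels: of 2 Ticam1 probes, 1 was never detected and the other was detected on 1 wild-type and 2 knockout arrays, at log2 intensities of 5.01 to 5.52 in wild-type and 5.01 to 5.63 in knockout cells. The sources used here do not give the deleted part of the gene.

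Across the 8 member probes, 5 (62.5%) were detected on no array, and 10614 of all 25697 probes (41.3%) were likewise never detected. A probe entered the tests when it was detected on at least 2 arrays. That left 9541 genes, with Slfn2 as the 1 member among them. It passed only through the wild-type groups, where it is high.

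The non-normalized Slfn2 signal was 184.4 and 645 on the wild-type c-di-GMP arrays and 338.9 and 162 on the wild-type DMSO arrays. On the knockout arrays it was 112 and 135.8 after c-di-GMP, against 148.6 and 160.6 after DMSO. These signals overlap between the wild-type groups, whose arrays had mean signals of 252.6 to 640.3. The rank of the probe within its own array does not depend on that brightness. Slfn2 stood above 81.1% and 82.9% of all probes in wild-type c-di-GMP cells and above 74.7% and 67.6% in wild-type DMSO cells. It stood above 32.0% and 44.1% of probes in knockout c-di-GMP cells and above 53.2% and 36.5% in knockout DMSO cells. By rank the 4 wild-type arrays lay above the 4 knockout arrays, and both c-di-GMP arrays lay above both DMSO arrays among the wild-type ones. The share of all probes that separate in these ways was not counted, so this is a description only.

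The Slfn2 detection p-value was 0 on both wild-type c-di-GMP arrays and 0 and 0.00125 on the wild-type DMSO arrays. It was 0.370 and 0.179 in knockout c-di-GMP cells and 0.0602 and 0.461 in knockout DMSO cells. The first knockout DMSO array thus came closest to detection among the knockout arrays. On the second, the weak one, the lowest detected log2 intensity was 7.53. Slfn2 read 7.51 and 6.55 in wild-type DMSO cells, so a level like theirs would lie under that value. Detection on all 4 wild-type and no knockout array was shown by 344 probes (1.34% of all), and the reverse by 39 (0.152%). With the weak array left out the 2 patterns held for 364 (1.42%) and 310 probes (1.21%).

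**Figure D1:**
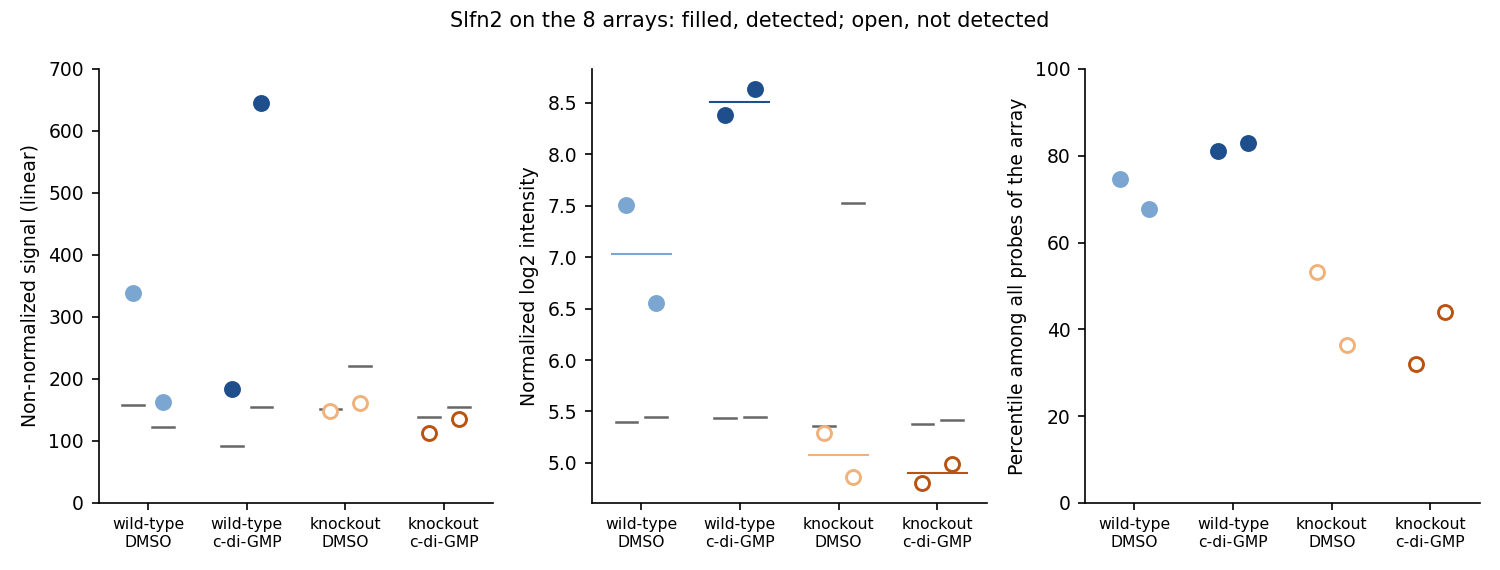
Slfn2 on each array, as non-normalized signal (left, linear), normalized log2 intensity (middle) and percentile among all probes of the array (right). Filled points are detected, open points are not. Grey bars in the left and middle panels are the lowest detected value of each array, coloured lines in the middle are group means, and the bar of the second knockout DMSO array (7.53) lies far above the others.

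After normalization the Slfn2 log2 intensity was 8.38 and 8.64 in wild-type c-di-GMP cells, 7.51 and 6.55 in wild-type DMSO cells, 4.80 and 4.99 in knockout c-di-GMP cells, and 5.29 and 4.86 in knockout DMSO cells. The group means were 8.51 ± 0.18 (SD, n = 2), 7.03 ± 0.67, 4.90 ± 0.13 and 5.07 ± 0.30 in that order. The wild-type groups did not overlap with each other or with the knockout groups, and the knockout groups overlapped. How many other genes separate likewise was not counted. The authors' deposited normalized table gave the same order of groups, with intensities of 438.9 and 503.2, 286.3 and 197.7, 119.2 and 128.3, and 139.7 and 121.7.

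In wild-type cells Slfn2 was higher with c-di-GMP by 1.48 ± 0.37 (SE) on the log2 scale, or 2.79-fold, with a 95% interval of 0.59 to 2.37. The unadjusted p was 0.00587 and the adjusted p 0.272 in limma's model of the 8 arrays, so the difference was not called. A larger difference was found for 1.54% of genes. In this comparison 0 of the 7 members were called, beside 0.597% of all genes tested (57 of 9541, with 56 higher and 1 lower, and 641 whose unadjusted p was under 0.05). Without the weak array the difference is the same, its SE was 0.30 and its adjusted p 0.0362, and 1 of 7 members was called beside 5.87% of all genes. The same adjusted p came from leaving out the other knockout DMSO array instead, since either choice takes the spread within that group out of the model. A fit on the 4 wild-type arrays alone gave an adjusted p of 0.0875, so Slfn2 was not called there.

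In knockout cells Slfn2 was not detected with or without c-di-GMP, so neither level is known and no fold is given. Its readings differed by -0.17 ± 0.37 on the log2 scale, with a 95% interval of -1.07 to 0.72 and a limma adjusted p of 0.801. In this comparison 0 members and 0 genes of 9541 were called (0% on 8 arrays and 0% on 7), while 254 and 221 genes had an unadjusted p under 0.05. Readings at background set a limit to what this interval can show, since a rise that stays under the detection level leaves them unmoved.

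The difference between the responses, knockout minus wild type, was -1.65 ± 0.53 for Slfn2, with a 95% interval of -2.91 to -0.39. Its knockout part is made of undetected readings, so the same limit holds for this interval. Its unadjusted p was 0.0174 and its limma adjusted p 0.710, so the responses were not shown to differ. Here 0 members were called, beside 0.0419% of all genes, with 506 genes at an unadjusted p under 0.05. On 7 arrays the difference was -1.87 ± 0.48 with an adjusted p of 0.181, again with 0 members called, beside 0.87% of all genes.

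Slfn2 was lower in knockout than in wild-type cells under both treatments. Under DMSO the fitted difference was -1.96 ± 0.37 with a limma adjusted p of 0.0196. Its size is a bound, since the knockout cells were below detection: against the lowest detected signal Slfn2 was at least 1.50-fold lower on 8 arrays, and at least 3.18-fold lower on 7, where the fit gave -1.74 ± 0.37 (adjusted p = 0.0132). The bound is lower on 8 arrays because the weak array detected nothing under a log2 intensity of 7.53. This call made 1 of 7 members, beside 12.7% of all genes on 8 arrays (500 higher and 714 lower) and 28.1% on 7. Slfn2 was also called with the authors' normalized table and without background correction (no normexp). The fitted differences there were smaller, at -0.87 and -0.77 (adjusted p of 0.0443 and 0.0460, limma). With median scaling in place of quantile normalization the split was 3 higher and 89 lower, and Slfn2 was not called, at -1.86 with an adjusted p of 0.465. It was also not called when either array of wild-type c-di-GMP (adjusted p = 0.0502), either array of knockout c-di-GMP (0.0598) or the first wild-type DMSO array (0.135) was left out.

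Under c-di-GMP the fitted difference was -3.61 ± 0.37, with a limma adjusted p of 0.00148. On this normalized scale Slfn2 was at least 8.65-fold lower in knockout cells, and neither group holds the weak array. The adjusted p was 0.000115 when the weak array was left out of the model. Again 1 of 7 members was called, beside 14% of all genes on 8 arrays (558 higher and 777 lower) and 44.4% on 7. With median scaling the split was 18 higher and 130 lower, and Slfn2 was not called, at -3.38 with an adjusted p of 0.0734. Slfn2 was called with the authors' normalized table and with no normexp (adjusted p of 0.00202 and 0.00211, limma). The fitted differences there were smaller, at -1.93 and -1.72, so the bound of 8.65-fold does not carry over to them. The comparisons share arrays with each other: the wild-type DMSO arrays enter both the wild-type response and the genotype difference under DMSO.

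**Figure D2:**
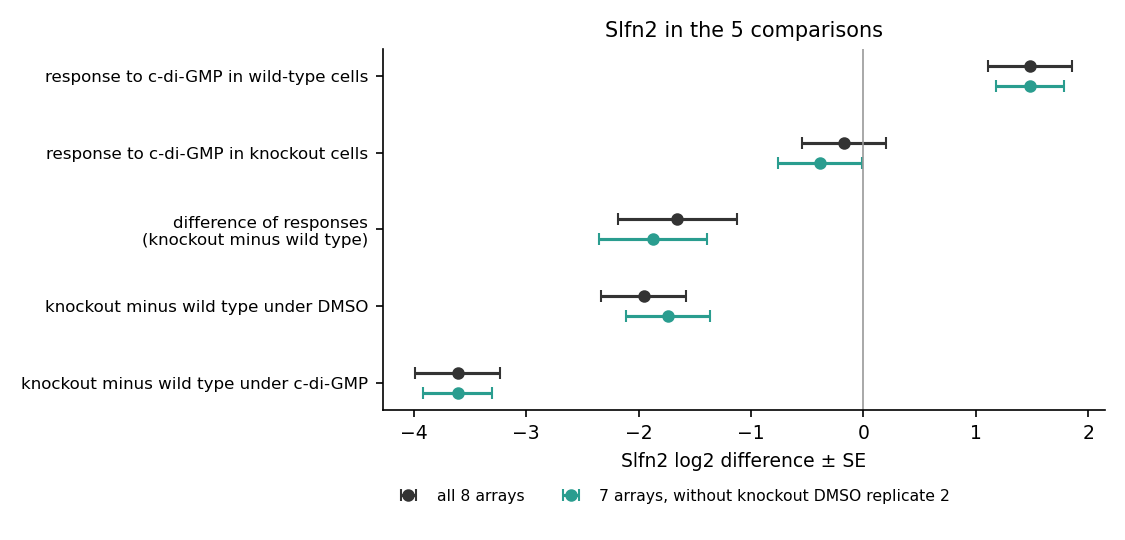
Slfn2 log2 difference ± SE in the 5 comparisons (horizontal axis), on all 8 arrays (black) and on the 7 arrays without the weak one (green). The wild-type response (1.48) is the 1 comparison with Slfn2 higher. The 2 genotype differences are bounded by the detection level of the knockout arrays. The knockout response and the difference of responses also rest on undetected knockout readings.

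Median scaling shifts all genes, so Slfn2 was also set against the median of the 9541 genes. Relative to that median its wild-type response was 1.54 with quantile normalization and 1.45 with median scaling. Its genotype difference was -1.85 and -1.23 under DMSO, and -3.71 and -3.84 under c-di-GMP. The direction of Slfn2 in these comparisons was the same under both scalings.

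Among the short members, Slfn1, the founding member of the family and known to slow the growth of thymocytes, was detected on no array. Its signals ran from 88.4 to 130.5 and its detection p from 0.120 to 0.930. Its log2 intensity was 4.56 to 5.11, under the lowest detected value of every array.

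Of the intermediate members, Slfn3 was detected on no array, with signals of 83.4 to 170.2 and detection p of 0.234 to 0.906. Slfn4, an interferon-induced gene of macrophages, was detected on 1 array, the weak knockout DMSO array, with a signal of 232, a detection p of 0.0313 and a log2 intensity of 7.90. On the other 7 arrays Slfn4 read 4.54 to 5.04, with detection p of 0.143 or more. The other knockout DMSO array read 4.54, the lowest of the 8, so the reading was not repeated in its own group. In all, 467 probes (1.82% of the table) were detected on that array alone, the highest such number among the 8 arrays, where the others had 140 to 357.

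Among the long members, Slfn5, known to restrain the growth of human melanoma cells under interferon, was detected on no array, with detection p of 0.243 to 0.827. Slfn8 was also detected on none. It had the narrowest range of the members with 1 probe, 4.54 to 4.72 on the log2 scale, and detection p of 0.497 to 0.965. The Slfn8 readings of wild-type c-di-GMP cells, 4.54 and 4.57, lay under those of both DMSO groups, with every reading under detection.

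The 2 Slfn9 probes did not read alike. The first was detected on no array and stayed at 4.70 to 4.83. The second was detected on wild-type c-di-GMP replicate 1, with a signal of 102.5, a detection p of 0.00251 and a log2 intensity of 6.29, and not on replicate 2, which read 128.4 with a detection p of 0.217 and a log2 intensity of 4.95. Of all probes, 357 (1.39%) were detected on that array alone. The second probe also read 7.16 on the weak array, where its detection p-value of 0.0689 was over the threshold. It read 4.55 to 4.74 on the other 5 arrays. A detected Slfn9 reading with c-di-GMP thus came from 1 of 2 arrays and 1 of 2 probes, and Slfn9 did not enter the tests.

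Slfn1, Slfn3, Slfn5 and Slfn8 have no bound in either direction, because both sides of each comparison lie under the detection level, and Slfn4 and Slfn9 were each detected on 1 array and did not enter the tests. With no filter on detection all 7 members were tested. The members called were the same in number, 0 in both responses and in their difference and 1 under either treatment between genotypes. Of all 17870 genes in that run, 1103 were called between genotypes under DMSO and 1283 under c-di-GMP. In the wild-type response, the knockout response and their difference 54, 0 and 3 genes were called. Slfn2 then had adjusted p = 0.0319 under DMSO and 0.00338 under c-di-GMP in limma. Of other Schlafen-named genes, the 2 probes of Slfn10-ps (Slfn10 in the table) and the 1 of Slfnl1, a Schlafen-like gene on another chromosome, were detected on no array.

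The genes of the interferon route were compared with Slfn2, since Schlafen genes are interferon targets. Of 16 listed, 14 were tested. For this list and those below, the share of all genes called on 8 arrays was 0.597% in the wild-type response. Between genotypes it was 12.7% under DMSO and 14% under c-di-GMP. Each of these shares was larger on 7 arrays, so a rise in a list's count there is not particular to the list. In wild-type cells 1 was called higher with c-di-GMP and 0 lower, with a median of 0.89 beside -0.06 over all genes. On 7 arrays 6 of the 14 were called higher. The gene called on 8 arrays was Ifnb1, interferon beta, which was not detected under DMSO and was at least 19.8-fold higher with c-di-GMP (adjusted p = 0.00412, limma). Between genotypes under DMSO, 0 were called higher and 4 lower, with a median of -1.40 beside -0.11. Among them were Usp18, a brake on the interferon receptor, at least 48.2-fold lower in knockout cells, and Stat2 and Irf9, which carry the interferon signal to the nucleus, with fitted differences of -3.66 ± 0.30 and -2.72 ± 0.32 (adjusted p of 0.000739 and 0.00329, limma). On 7 arrays 8 of the 14 were lower under DMSO and 0 higher, with a median of -0.87, and Usp18 was at least 102.2-fold lower. Under c-di-GMP 8 of the 14 were lower in knockout cells on 8 arrays and 0 higher, beside 14% of all genes called in either direction. With median scaling none of the 14 was called in the wild-type response, and 3 were lower under DMSO and 5 under c-di-GMP, with medians of 0.64, -1.63 and -2.46.

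A second list held interferon-induced genes chosen as acting on RNA or translation, a label that fits some, such as Mx1 and Mx2, loosely. Of its 20 genes, 16 were tested. In wild-type cells 6 were called higher with c-di-GMP and 0 lower, with 16 of 16 differences above 0 and a median of 1.85. Oasl1, a regulator of Irf7 translation, rose by 4.20 ± 0.27, Rsad2, the antiviral enzyme viperin, by 3.17 ± 0.27, and Mx1 and Mx2, antiviral GTPases, by 3.02 ± 0.25 and 3.07 ± 0.35 (adjusted p of 0.00443, 0.0105, 0.0105 and 0.0252, limma). The Slfn2 difference of 1.48 lay under the median of this list. Oas1b and Oas2 of the list were undetected in wild-type DMSO cells, so their differences are bounds (at least 2.38-fold and 3.77-fold). Without the weak array 13 of the 16 were called higher. In knockout cells 0 were called in either direction, with a median of -0.03. Under DMSO 9 were lower in knockout cells and 0 higher, with a median of -1.87 on 8 arrays, and again 9 lower and 0 higher with a median of -1.56 on 7. Several of these genes, like Slfn2, were undetected in knockout DMSO cells, so the fitted medians are not sizes of change. Under c-di-GMP 14 were lower and 0 higher, with a median of -3.66, beside 14% of all genes called in either direction. With median scaling 0 were called in the wild-type response, where 16 of 16 were again above 0 with a median of 1.59, and 3 and 8 were lower in knockout cells under DMSO and c-di-GMP.

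**Figure D3:**
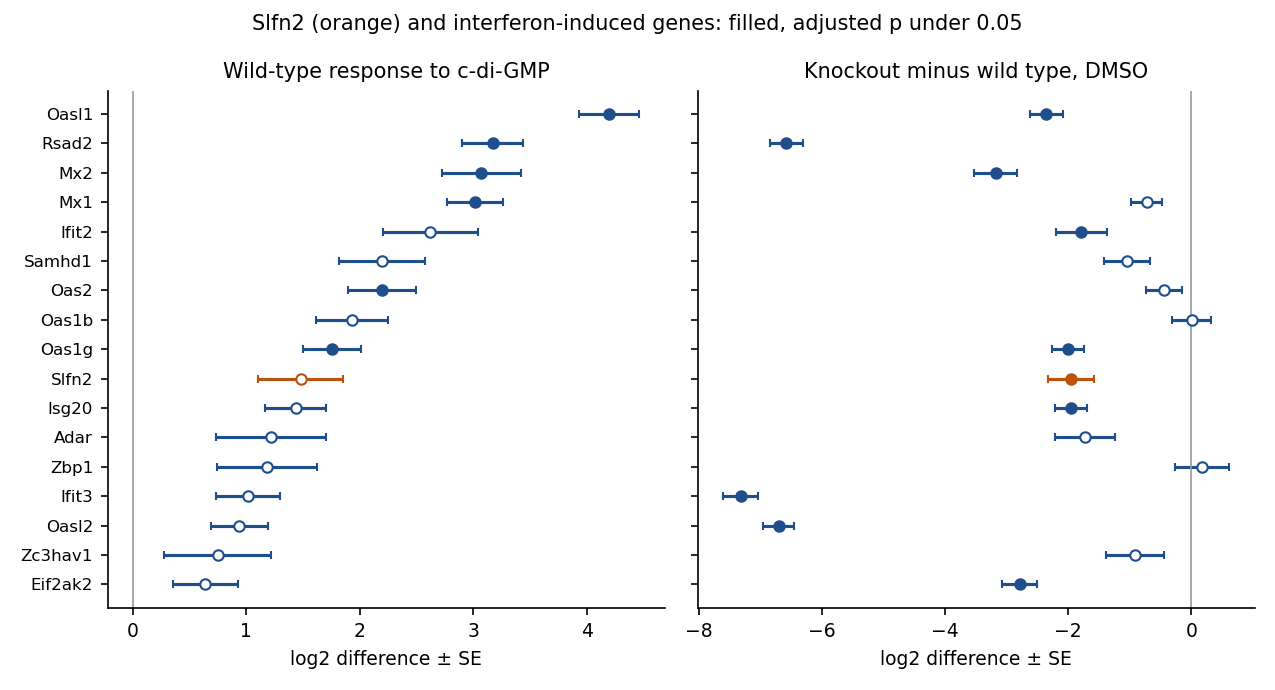
Log2 difference ± SE of Slfn2 (orange) and the 16 tested interferon-induced genes of the second list. The wild-type response to c-di-GMP is on the left and knockout minus wild type under DMSO on the right. Filled points have an adjusted p under 0.05. Slfn2 (1.48) lies in the lower part of the left panel, under the list's median of 1.85. Genes undetected in knockout cells have a bound rather than a level on the right. The same holds on the left for Oas1b and Oas2, which were undetected in wild-type DMSO cells.

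Growth genes were listed because Schlafen proteins are known to restrain cell division, and 15 of 18 were tested. None was called in the wild-type response (0 higher, 0 lower, median 0.02, limma) or in the knockout response (median -0.07). Between genotypes under DMSO 7 were higher in knockout cells and 0 lower, with a median of 1.10 beside -0.11 over all genes. Of all genes, 12.7% were called there in either direction. Mcm5, a part of the replicative helicase, was higher by 2.55 ± 0.27, Foxm1, a factor for mitotic genes, by 2.24 ± 0.24, Mcm2 by 2.62 ± 0.30, and Ccna2, cyclin A, which was undetected in wild-type DMSO cells, at least 9.04-fold on 8 arrays and 5.63-fold on 7 (adjusted p on 8 arrays of 0.00222, 0.00231, 0.00282 and 0.00368, limma). Without the weak array 9 were higher and 2 lower, Ccnd2 (cyclin D2) and Cdkn1a (the cell cycle inhibitor p21), both named after their values were seen, with a median of 1.53. These calls depend on the scaling too: with median scaling 0 of the 15 were called under DMSO, and the median was 0.18 beside -0.63 over all genes. The fitted median of the growth genes thus had the opposite sign to the Slfn2 difference under both scalings. Whether one bears on the other was not tested.

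The 12 nearest tested genes around the Schlafen cluster, 6 on each side, did not share one direction. In wild-type cells 1 was higher with c-di-GMP, the chemokine Ccl5, by 3.37 ± 0.33 (adjusted p = 0.0169, limma), and 0 were lower, with a median of 0.13, and on 7 arrays 2 were higher. Between genotypes under DMSO 1 was higher in knockout cells, the chemokine Ccl11, by 3.52 ± 0.37, and 4 were lower, with a median of -0.29. These 4, named after their values were seen, are all chemokines: Ccl3 and Ccl5, at least 5.93-fold and 11.9-fold lower (12.6-fold and 25.3-fold on 7 arrays), and Ccl7 and Ccl9. Of the 7 flanking genes that are not chemokines, 0 were called in either comparison on 8 arrays. Without the weak array 2 of the 12 were higher and 4 lower under DMSO, and the higher ones included Lig3, a DNA ligase named after its values were seen (1.03, adjusted p = 0.0353, limma). With median scaling 0 of the 12 were called in the wild-type response, and 2 were lower and 0 higher in knockout cells under DMSO.

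The profiles closest to that of Slfn2 were those of 3 genes over the 8 arrays, by Pearson correlation of log2 intensity, given as a description. They were Cstdc4 (r = 0.993), Clca1 (0.992) and the interferon-induced Mx2 (0.989), each detected on 4 arrays. Without the weak array the values were 0.991, 0.992 and 0.989. A correlation over 0.9 was common, at 469 of 9540 genes on 8 arrays and 792 on 7. All arrays of a genotype share that genotype's other differences, so the points are not independent.

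Fibroblast markers were read on all arrays: 9 of 9 were detected on the 7 arrays with full signal and 7 on the weak one. Their levels differed between genotypes in both directions. Under DMSO 3 were called higher in knockout cells (Pdgfra by 3.06, Dcn by 1.76 and Thy1 by 1.32) and 1 lower (Col1a1, -2.11). Under c-di-GMP 2 were higher and 2 lower. Of all genes, 12.7% and 14% were called in these comparisons on 8 arrays. With median scaling 0 of the 9 were called in either. Since Schlafen genes are best known from immune cells, markers of those cells were read on the same arrays. T cell markers were mostly absent, with 6 of 8 detected on no array (Cd2, Cd3d, Cd3g, Cd4, Cd8a and Zap70). Lck was detected on 1 wild-type and 1 knockout array. Cd3e, a chain of the T cell receptor complex, was detected on 4 wild-type and 3 knockout arrays and was lower in knockout cells by fitted differences of -2.29 ± 0.40 under DMSO and -2.47 ± 0.40 under c-di-GMP (adjusted p of 0.0139 and 0.0091, limma). On 7 arrays the DMSO difference was -1.88 (adjusted p = 0.00662). Its part in the Slfn2 genotype difference was not tested. Only Cd3e and Lck were tested, and only these 2 enter the summed intensity. It was 251 to 402 in wild-type c-di-GMP and 255 to 262 in wild-type DMSO cells. In knockout cells it was 90.3 to 98.0 with c-di-GMP and 58.9 to 99.5 with DMSO.

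Some macrophage or other myeloid markers were lower in knockout cells. Of 10 markers, 7 or 8 were detected on each wild-type array and 0 to 3 on each knockout array. Ptprc, which marks all white blood cells, and Itgam were detected on none. The summed intensity of the 8 tested markers was 3123 to 3515 in wild-type c-di-GMP and 3928 to 4174 in wild-type DMSO cells. In knockout cells it was 446 to 459 with c-di-GMP and 270 to 495 with DMSO. Under DMSO 3 of the 8 tested were lower in knockout cells and 0 higher: Lyz2, a lysozyme of macrophages, at least 26.1-fold, Adgre1, the macrophage antigen F4/80, at least 8.97-fold, and Cd52 at least 6.85-fold (adjusted p of 4.55e-05, 0.000123 and 0.000145, limma). The 5 others were not called on 8 arrays under DMSO. With the weak array left out 3 were lower, at least 55.4-fold, 19.0-fold and 14.5-fold for Lyz2, Adgre1 and Cd52, and 1 was higher, Cd14, a co-receptor for bacterial lipopolysaccharide (0.92, adjusted p = 0.0128, limma). With median scaling 3 of the 8 were lower and 0 higher. Their part in the Slfn2 genotype difference was not tested, and in bulk RNA fewer cells of a type and less RNA per cell cannot be told apart. In the wild-type response 0 of the 8 were called and the median was -0.29, while Slfn2 read higher by 1.48. Single markers read in both directions, such as Tyrobp at 0.93 ± 0.55 and Cd68 at -0.63 ± 0.37, with neither called. The Tyrobp value came from the first c-di-GMP array: it read 7.29 and 5.45 with c-di-GMP against 5.32 and 5.55 with DMSO. The part of the markers in the response of Slfn2 was not tested.

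**Figure D4:**
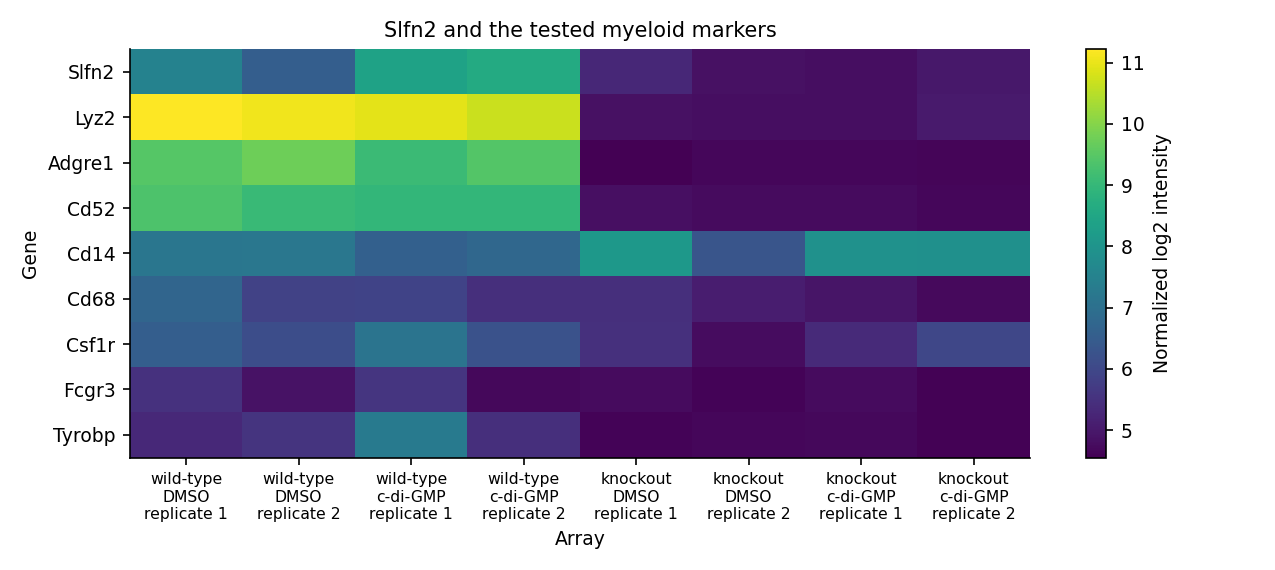
Normalized log2 intensity (colour scale) of Slfn2 and the 8 tested myeloid markers on each array, with wild-type arrays on the left and knockout arrays on the right. Lyz2, Adgre1 and Cd52 are bright on the 4 wild-type arrays and at background on the knockout arrays, as is Slfn2, while Cd14 is not lower in knockout cells.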

How the data were processed

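Total RNA of 8 MEF samples was measured on 1 array each. The authors deposited non-normalized probe intensity, made with GenomeStudio 2010.2 according to the submitters' processing notes, with a detection p-value per signal, per the file headers. It was read as the chance that a negative control is as bright as the probe, a reading the headers do not spell out. The authors also deposited a normalized intensity table on a linear scale. Its method, and any background handling before export, are not given in the sources used here. Groups and replicate numbers come from the sample titles.

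Signals went through limma's neqc (version 3.58.1, R 4.3.3: normexp background correction by detection p-value with an offset of 16, then quantile normalization and log2). Probes detected (p under 0.05) on 2 or more arrays were kept (13026), and the probe with the highest mean stood for its gene. This gave 9541 genes, of which 2456 had over 1 detected probe. Names were updated through RefSeq (20733 probes matched exactly, 122 by gene number, 3872 by synonym, 939 kept), and 31 probes that carry a date in place of a name were left out.

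Limma fitted 1 mean per group over all 8 arrays (4 residual and 2.77 prior degrees of freedom, or 3 and 4.22 on 7 arrays). All tests are two-sided and adjusted by Benjamini-Hochberg over 9541 genes and a threshold of 0.05. Where no array of a group detected a gene, its level there is only bounded. Each such array then took its lowest detected normalized log2 value, or the gene's own if higher, and "at least N-fold" sets the mean of these against the mean of the other group. Such a bound holds on this normalized scale, and other processing can give smaller folds. Precision is limited by how few arrays there are. The limma fit and the adjustment were tested on simulated log2 values. The normalization, the detection filter, the choice of probe and the bounds were not.

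All 7 members were named, with every probe. From each list, at most the 4 called genes with the smallest p were named, and the 3 genes most correlated with Slfn2. One listed gene is not reported here. Members and lists were chosen with earlier results of these data known. No pairing of the arrays by replicate number was seen, as given with the alternatives. The 2 arrays of a group shared at most 26 equal signals of 25697. Probe and protein sequences were not used here. The alternatives were median scaling, the authors' normalized table, no normexp, other detection filters, every probe on its own, array weights, only the groups compared, the replicate number as a block, and each array left out in turn.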

Additional observations from a re-analysis of the deposited data

How the results depend on the processing

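With 2 arrays a group, Slfn2 kept its direction under every alternative run in 4 of the 5 comparisons. In the knockout response, where it was not detected, it reversed to 0.0404 without the first knockout DMSO array. Under median scaling 0 genes were called in the wild-type response (limma, 109 at an unadjusted p under 0.05) and 0 in the difference of responses (72). Under DMSO it called 92 genes and 0 Schlafen genes between genotypes (Slfn2 -1.86), and under c-di-GMP 148 and 0 (Slfn2 -3.38). The authors' normalized table called 87 genes in the wild-type response and 15 in the difference of responses, and no normexp 89 and 22. Testing every detected probe on its own called 1 in the difference of responses. Array weights, equal within each group, called 492 genes in the wild-type response with 1 Schlafen gene (Slfn2 1.48, adjusted p = 0.0314, limma), 1 gene in the difference of responses, 274 and 0 Schlafen genes under DMSO (Slfn2 -1.96, adjusted p = 0.335), and 4021 under c-di-GMP. Fits on only the groups compared called 272 genes in the wild-type response, 104 and 0 Schlafen genes under DMSO (Slfn2 -1.96, adjusted p = 0.181), and 3933 under c-di-GMP.

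Same-numbered arrays had deviations correlated at -0.03 to 0.06, so no pairing by number was seen. With 2 arrays a group this cannot show that the samples were unpaired. With the replicate block 12 genes were called in the wild-type response and 0 in the difference of responses (419 at an unadjusted p under 0.05), and the Slfn2 calls did not change. Leaving out each array in turn gave 0 to 560 genes, 0 to 1 Schlafen genes and a Slfn2 difference of 1.00 to 1.96 in the wild-type response, with the call made only without either knockout DMSO array. For the knockout response the ranges were 0 to 5480 genes and -0.39 to 0.0404. For the difference of responses they were 0 to 4628 genes, 0 to 1 Schlafen genes and -2.13 to -1.18, with the 1 call made without the first knockout DMSO array (-1.44, adjusted p = 0.0422, limma), which leaves the weak one to stand for its group. Under DMSO they were 270 to 6119 genes, 0 to 1 Schlafen genes and -2.43 to -1.48, and under c-di-GMP 372 to 4239 genes, 1 Schlafen gene and -3.74 to -3.48. The cause of these changes was not tested. The slide as a block was not run, since the headers name no slide. Signal over background limits the rest: 6 of 7 members have no level.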
